A study of Mus musculus with 12 samples.

Results

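The 35 genes described here encode part of the core machinery of apoptosis. They cover members of the Bcl2 family, factors that mitochondria release, caspases with Apaf1, their inhibitors, and death receptors with their adaptors. Other genes of these pathways, Bax, Bbc3 and Fas among them, were read as a further list, given last. The 35 genes were picked out by gene symbol, from a list drawn up with earlier results of these data known. Each symbol was found once among the 55901 genes measured. RNA-seq libraries of primary cortical neurons from newborn C57BL/6J mice, treated with arabinosylcytosine to limit glia, were compared in 3 groups of 4. Control neurons were not scratched and received no TGF-β1. Trauma neurons were scratched and collected after 24 h without TGF-β1. Trauma+TGF-β1 neurons (Tra_TGF in the labels and below) were scratched and kept for 24 h with 10 ng/mL TGF-β1. There was no group with TGF-β1 and no scratch, so that the effect of TGF-β1 on uninjured neurons was not measured. The labels tie no library to an animal or a culture, so that the p-values measure only the spread between these libraries, which may be technical.

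In the mitochondrial route to apoptosis, BH3-only proteins sense stress and bind the survival proteins of the Bcl2 family. When these are overcome, pore-forming relatives open the outer mitochondrial membrane and release cytochrome c, which joins Apaf1 and caspase-9 in the apoptosome. In the receptor route, ligands such as TNF act through death receptors and adaptors on caspase-8. Much of this control acts on the proteins, through binding, cleavage, phosphorylation and release, and was not measured by RNA-seq. In the developing brain this machinery removes surplus neurons, and neurons are known to lower several of its parts as they mature.

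Expression was given as FPKM, reads scaled to gene length and to a size factor of each library, a median of ratios over genes. FPKM is a level per length that can be compared between genes. Fold changes are on the log2(FPKM + 0.1) scale, and a gene was called past the threshold where its adjusted p (Benjamini-Hochberg) was 0.05 or less in a limma fit over the 15016 genes with a mean of at least 0.5 FPKM. Of the 35 members, 33 passed this filter, while Casp8 and Birc3 lay below it. Between 15052486 and 17381671 reads fell on genes in each library. Control 1 stood apart from the other Control libraries in a principal component analysis (PC1 score −13.1 against 25.2 to 30.1), and members that passed only without it are named below. The neuron markers were high throughout (8 of 8 tested; summed level 1356 to 1423 FPKM in Control, 1214 to 1292 in Trauma and 1145 to 1185 in Tra_TGF). Most of this sum was Tubb3, a neuronal tubulin, with means of 960, 842 and 739 FPKM. In Trauma against Control 1 of the 8 was called higher, Gad1, an enzyme of GABA synthesis (0.19 on the log2 scale). In that comparison 2 were called lower, Tubb3 (−0.19) and Syt1 (−0.27). With TGF-β1 against Trauma, 1 of the 8 was called higher, Map2 (0.21), and 2 lower, Tubb3 (−0.19) and Slc17a7 (−0.17). In Tra_TGF against Control 3 were called higher, Map2, Gad1 and Gad2 (0.18 to 0.22). There 4 were called lower, Tubb3 (−0.38), Rbfox3 (−0.33), Syt1 (−0.18) and Slc17a7 (−0.17). The 8 astrocyte markers summed to 139 to 150, 185 to 228 and 209 to 227 FPKM in the same order, and 7 of them rose after injury. In Tra_TGF against Trauma 1 of the 8 was called higher, Aqp4 (0.32), and 2 lower, Aldh1l1 (−0.50) and Gja1 (−0.27). The 3 markers of dividing cells summed to 0.857 to 1.17, 2.72 to 3.84 and 3.01 to 3.34 FPKM. Oligodendrocyte lineage markers summed to 46.2 to 49.0, 57.2 to 64.4 and 56.6 to 63.0 FPKM, with 2 of the 5 tested higher in Trauma than in Control. Microglial markers summed to 2.07 to 2.91 FPKM in Control, 3.35 to 3.68 in Trauma and 3.22 to 3.90 in Tra_TGF. Neither of the 2 microglial markers tested was called in any comparison. Endothelial and mural markers summed to 0.659 to 1.40, 1.43 to 1.58 and 1.51 to 1.69 FPKM in the same order. Fibroblast markers summed to at most 2.50 FPKM in any library, and the endothelial marker Cldn5 had 3 reads or fewer in each. Mitochondrial transcripts took 2.17% to 2.30% of reads in Trauma and 2.69% to 3.23% in Tra_TGF, without overlap, and 2.12% to 2.97% in Control, where the highest was Control 1. These shifts moved with the groups, and their part in the results below was not tested. In bulk RNA, fewer cells of a type and less RNA per cell cannot be told apart.

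The upstream sequence of 6 members is shown, those with a call in at least 1 comparison that was kept in all 27 alternatives tried, to set the letters beside their shared directions. Each line gives the 200 bases before the transcription start, 5′ to 3′ on the strand of the gene, from RefSeq on GRCm38.p6 (windows were found for 32 of the 35 members, and where a gene had several, the start nearest to the 5′ end in the deposited table was taken). For Tnfrsf1a that start lay 361 bases inside the gene as deposited, so that its window lies within the gene. For Xiap, Casp8 and Hrk, counted below, it lay 8157, 7128 and 5116 bases from the deposited 5′ end. Capitals mark matches on either strand to 7 motifs. These were the Sp1 site GGGCGG, the box named by its letters CCAAT, the ETS site CCGGAAG, the NRF1 site GCATGCG, the AP-1 site TGANTCA, the cyclic AMP response element (CRE) TGACGTCA and the box CAGACA that SMAD proteins bind downstream of TGF-β. Tnfrsf1a and Bcl2 rose after injury, and Bok, Bad, Cycs and Bcl2l1 were lower with TGF-β1 than in either other group.
Tnfrsf1a (chr6:125349523-125349722, plus strand): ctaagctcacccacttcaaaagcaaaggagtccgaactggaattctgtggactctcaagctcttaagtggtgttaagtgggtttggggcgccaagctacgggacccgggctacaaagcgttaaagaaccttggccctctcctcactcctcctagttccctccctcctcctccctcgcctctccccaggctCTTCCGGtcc
Bcl2 (chr1:106714291-106714490, minus strand): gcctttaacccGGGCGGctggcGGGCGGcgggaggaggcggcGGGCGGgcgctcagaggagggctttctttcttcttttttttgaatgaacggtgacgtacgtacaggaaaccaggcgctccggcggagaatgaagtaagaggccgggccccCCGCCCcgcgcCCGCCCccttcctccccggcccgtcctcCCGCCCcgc
Bcl2l1 (chr2:152831729-152831928, minus strand): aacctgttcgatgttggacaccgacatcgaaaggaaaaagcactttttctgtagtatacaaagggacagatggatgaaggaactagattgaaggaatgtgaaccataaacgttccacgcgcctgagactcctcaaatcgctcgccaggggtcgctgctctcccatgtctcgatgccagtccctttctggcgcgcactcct
Bok (chr1:93685375-93685574, plus strand): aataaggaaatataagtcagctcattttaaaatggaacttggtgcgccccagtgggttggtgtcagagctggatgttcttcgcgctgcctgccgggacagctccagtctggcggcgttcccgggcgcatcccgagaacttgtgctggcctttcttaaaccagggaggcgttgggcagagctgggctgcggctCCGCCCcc
Bad (chr19:6941661-6941860, plus strand): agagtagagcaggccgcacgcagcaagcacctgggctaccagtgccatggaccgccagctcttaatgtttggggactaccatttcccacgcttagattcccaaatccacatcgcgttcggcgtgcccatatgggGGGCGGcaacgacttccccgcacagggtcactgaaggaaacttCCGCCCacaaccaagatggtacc
Cycs (chr6:50566570-50566769, minus strand): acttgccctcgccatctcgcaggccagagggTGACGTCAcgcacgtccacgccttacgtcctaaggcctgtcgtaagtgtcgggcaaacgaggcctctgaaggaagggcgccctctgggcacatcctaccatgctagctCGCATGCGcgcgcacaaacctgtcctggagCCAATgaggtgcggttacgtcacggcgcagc
The Bcl2 window held only Sp1 matches, as did those of Bok and Bad, while the Cycs window held a CRE, an NRF1 match read on both strands and a CCAAT box. The Tnfrsf1a window held a single ETS match and that of Bcl2l1 none of the 7. Over the 32 members with a window, 21 (65.6%) held the Sp1 motif, against 31.1% of all 32843 windows, 5 (15.6%) held NRF1 against 2.74%, 8 (25.0%) held CCAAT against 29.4%, 3 (9.38%) held ETS against 6.29% and 2 (6.25%) held CRE against 1.47%. None of the 32 windows held an AP-1 match (5.48% of all windows) or the SMAD letters (13.8%). The 2 sets are unlike. Each member gave 1 window, while all windows covered 27020 genes, some with several, and were not limited to the genes tested here. The shares over the genes tested were not computed. The members' windows were also richer in GC, with a median of 61.8% against 53.0% over all windows. A match is a description of the letters and not evidence of binding.

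The members differed widely in level. Mcl1, which encodes a short-lived survival protein, was the highest, at 33.1, 35.4, 34.3 and 33.4 FPKM in the 4 Control libraries, 36.7, 39.6, 35.4 and 37.6 in Trauma, and 37.2, 38.2, 36.0 and 35.9 in Tra_TGF. All Trauma libraries lay at or above the highest Control library, but the difference of 0.13 ± 0.0404 (log2, SE) did not pass the threshold (adjusted p = 0.0804), although it did with FPKM scaled to the total reads on genes and with quantile normalization (0.17 and 0.15, adjusted p = 0.0206 and 0.0311 in limma). Cycs (mean over the 12 libraries 26.8 FPKM), Bok (24.8), Tnfrsf21 (24.7), Parp1 (24.5) and Bcl2l1 (22.8) came next, and the other tested members had means between 0.536 (Fadd) and 12.4 FPKM (Birc6). The lowest member was Birc3, encoding an inhibitor of apoptosis best known from NF-κB signalling. It was at 0.156, 0.0352, 0.0635 and 0.0130 FPKM in Control, at 0.0121, 0.0229, 0.0113 and 0.0224 in Trauma and at 0.0786, 0.0128, 0.0370 and 0 in Tra_TGF, which is 0 to 12 reads per library, so that no fold change is given. In the library without a read, 3 reads would have been 0.0374 FPKM. Casp8, the initiator caspase of the receptor route, was at 0.0220 to 0.449 FPKM in Control (1 to 20 reads), 0.0991 to 0.253 in Trauma (5 to 13 reads) and 0.113 to 0.354 in Tra_TGF (5 to 16 reads), which overlapped.

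**Figure D1:**
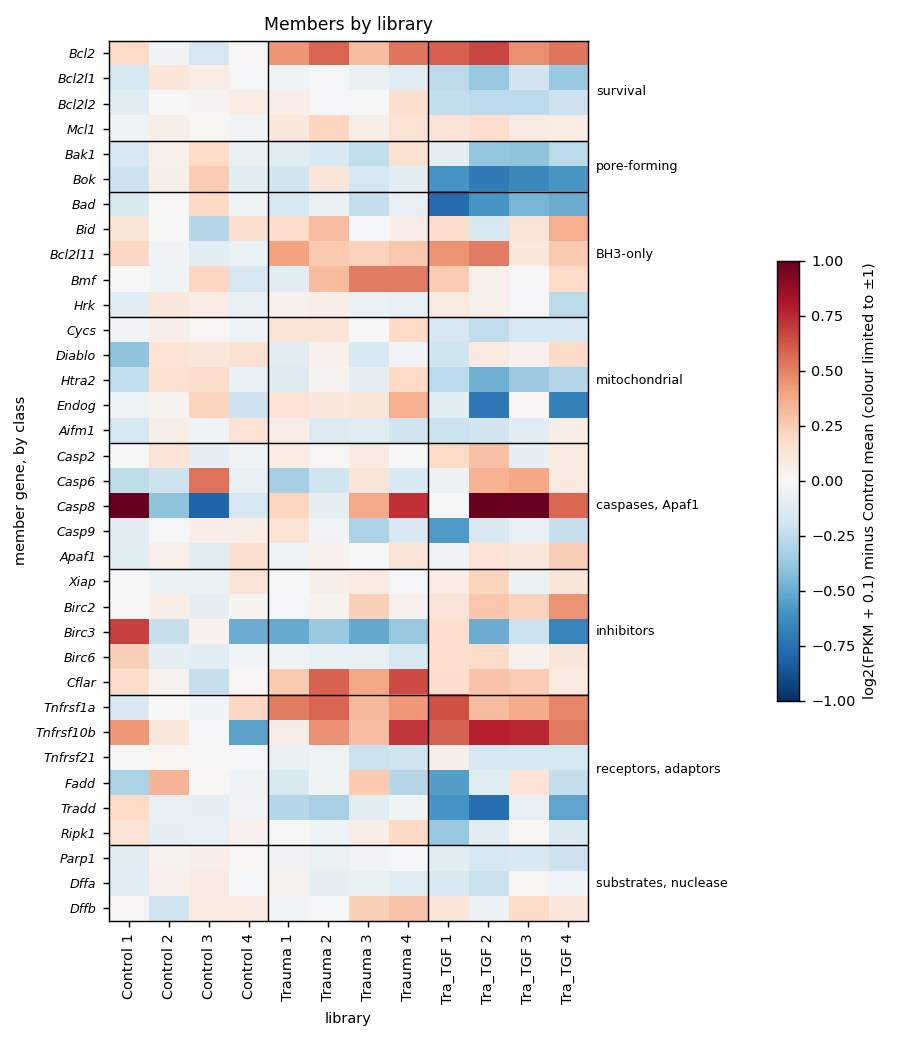
Each row is a member gene, ordered by class, and each column a library. Colour gives the difference of log2(FPKM + 0.1) from the mean of the 4 Control libraries, limited to ±1. Bcl2 and Tnfrsf1a are red in all 8 scratched libraries, Bok and Bad are blue in the 4 Tra_TGF libraries, and the strong colours of Casp8 and Birc3 rest on at most 20 reads.

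The comparison of Trauma with Control asked what scratch injury changed. Only 2 of the 33 tested members passed the threshold, Bcl2 and Tnfrsf1a, and both rose. That is 6.06% of the members, against 6.00% of all genes tested, and 2 members higher compare with 3.30% of all genes higher, so that the share called was that of the background. The median log2 fold change was 0.0312 over the members and −0.0118 over all genes tested. In 6 members the 4 libraries of each group did not overlap, where 12.9% of all genes did not. At an unadjusted p of at most 0.05, 7 members differed, where 20.0% of all genes did. Without Control 1, 3 members passed, Bcl2l11 being the added one, and without Control 2, 3 or 4 or Trauma 1, 2 or 4 only 1 did, Tnfrsf1a. The share of all genes called was 3.26% to 5.83% with 1 library left out. For all genes the split of 496 higher and 405 lower became 655 and 223 with FPKM scaled to the total reads on genes and 482 and 783 with a correction for GC content, and Bcl2 and Tnfrsf1a were called higher in both.

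Bcl2, which encodes the survival protein that names the family, was at 1.31, 1.11, 1.00 and 1.15 FPKM in Control and at 1.58, 1.75, 1.44 and 1.69 in Trauma. The lowest Trauma library lay above the highest Control library. It rose 1.38-fold (log2 fold change 0.47 ± 0.110, SE, adjusted p = 0.0284), to a level that was still the lowest of the 4 survival genes. Its call was lost without any of Control 2, 3 or 4 or Trauma 1, 2 or 4 (log2 fold change 0.41 to 0.47, adjusted p = 0.0565 to 0.0880 in limma), with quantile normalization, without a filter on low values and in a fit of the 2 groups alone, and held without Control 1 (0.53, adjusted p = 0.0197). The other survival genes gave values of −0.064 for Bcl2l1 and 0.052 for Bcl2l2, beside the 0.13 of Mcl1, none of which passed.

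Tnfrsf1a encodes the main receptor for TNF. It was at 4.67, 5.20, 5.08 and 6.03 FPKM in Control and at 7.48, 7.85, 6.57 and 7.09 in Trauma. All Trauma libraries were higher than all Control libraries. It rose 1.38-fold (log2 fold change 0.46 ± 0.0904, adjusted p = 0.0114), and this call was kept in each of the 27 alternatives tried, with log2 fold changes between 0.40 and 0.53. Of its adaptors, Tradd (−0.19 ± 0.133) and Ripk1 (0.056 ± 0.145) did not pass, nor did Fadd (−0.054 ± 0.249), which joins Fas and the TRAIL receptor to caspase-8. The other death receptors of the list gave 0.38 ± 0.251 for Tnfrsf10b, the TRAIL receptor, and −0.13 ± 0.0567 for Tnfrsf21, also known as death receptor 6, and neither passed (adjusted p = 0.450 and 0.206). Astrocyte markers rose in the same comparison, the summed microglial markers were higher too, and Tnfrsf1a is expressed in glia as well as in neurons. A change in the cell mixture and a change within neurons therefore cannot be told apart here.

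Among the remaining classes, none of the 2 pore-forming, 5 BH3-only, 5 mitochondrial, 4 tested caspase and apoptosome, 4 tested inhibitor and 3 substrate or nuclease genes passed after injury. The largest differences among them were those of Cflar, which encodes the caspase-8 inhibitor c-FLIP (0.47 ± 0.196, adjusted p = 0.198), Bmf (0.31 ± 0.157, adjusted p = 0.307) and Bcl2l11, which encodes the BH3-only protein Bim (0.29 ± 0.0962, adjusted p = 0.106). Bcl2l11 passed in 4 of the 27 alternatives, among them without Control 1 (0.36, adjusted p = 0.0438) and with voom on the reads (0.31, adjusted p = 0.0354), and Cflar passed in 2, voom (0.57, adjusted p = 0.0157) and eBayes without a trend (adjusted p = 0.0278 in limma). The Trauma libraries of Cflar and Bcl2l11 lay above all Control libraries, at 0.605 to 0.825 against 0.402 to 0.564 FPKM and at 5.14 to 5.78 against 4.05 to 5.06 FPKM. For caspase-9, the initiator caspase of the apoptosome, the 95% interval of the log2 difference ran from −0.34 to 0.16. It ran from −0.15 to 0.21 for Apaf1, from −0.16 to 0.24 for Casp2 and from −0.65 to 0.37 for the effector caspase gene Casp6, so that changes of that size could not be told from none.

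The comparison of Tra_TGF with Trauma asked what TGF-β1 changed in scratched neurons. Here 7 of the 33 members fell and none rose, which is 21.2% of the members against 12.1% of all genes called and 7.71% called lower. They were Cycs, Htra2 and Endog among the mitochondrial factors, Bcl2l1 and Bcl2l2 among the survival genes, the pore-forming Bok and the BH3-only Bad, so that genes with opposite roles in apoptosis fell together. The share of mitochondrial reads was higher in every Tra_TGF library than in any Trauma library, and its part in these calls was not tested. The groups did not overlap in 9 members, where 22.2% of all genes did not overlap. The median log2 fold change was −0.0279 over the members and 0.00251 over all genes. At an unadjusted p of at most 0.05, 9 members were lower and 2 higher, where 29.2% of all genes differed. Without any Trauma library or without Tra_TGF 2 or 4 the count was 4, and without Control 1 it was 9, with Birc6 higher (0.22, adjusted p = 0.00908 in limma) and Parp1 lower (−0.12, adjusted p = 0.0223). The share of all genes called was itself between 4.34% (without Tra_TGF 2) and 16.9% (without Control 1) with 1 library left out. With quantile normalization the split of all genes called turned from 661 higher and 1158 lower to 1125 higher and 927 lower, while 7 members remained lower and Birc6 was called higher.

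**Figure D2:**
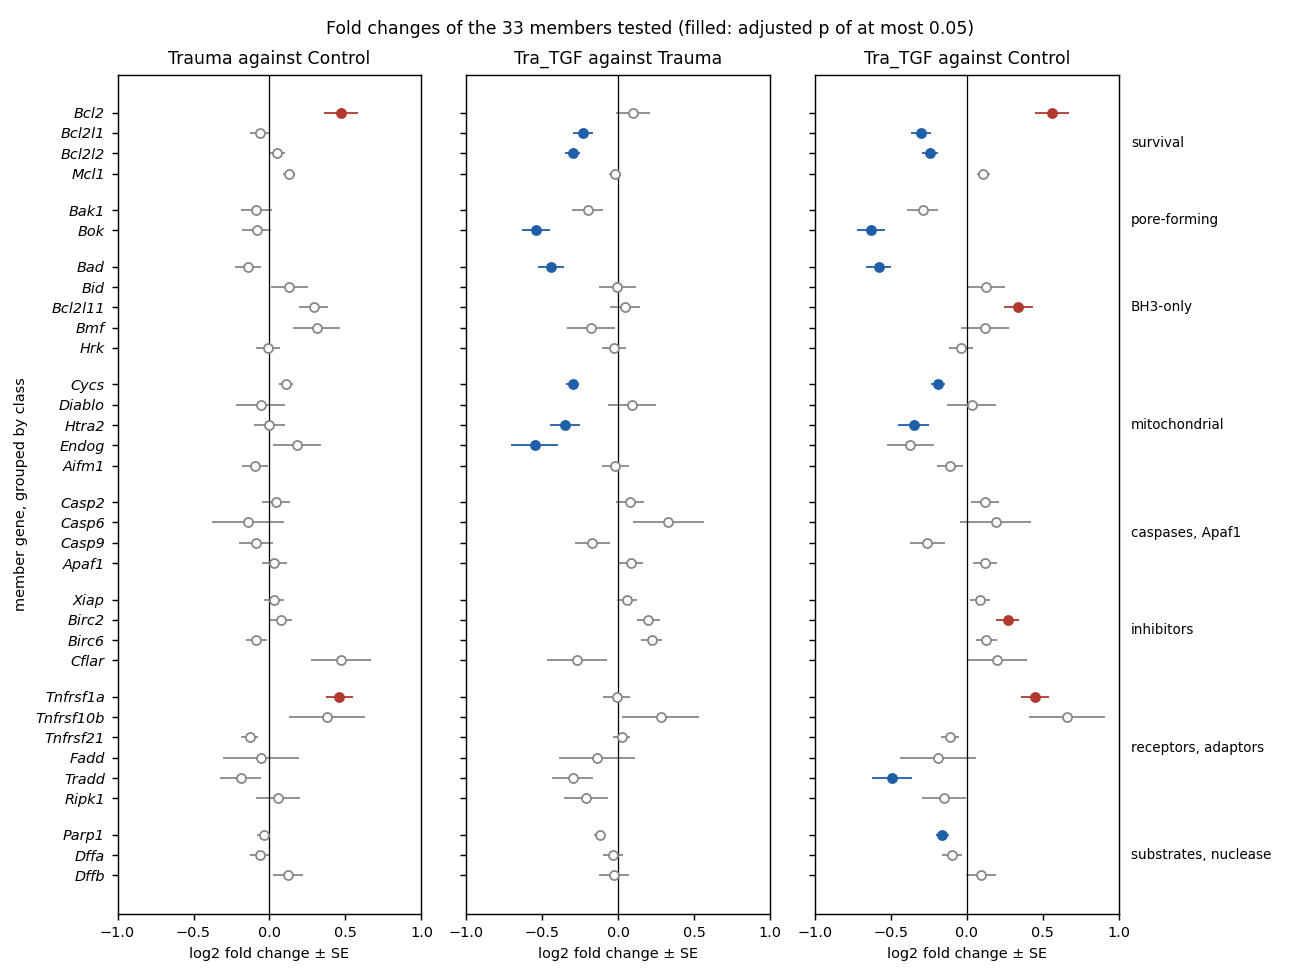
Points give the log2 fold change of each of the 33 tested members and bars its SE, in the 3 comparisons, with genes grouped by class. Filled points passed the threshold (red higher, blue lower): 2 higher in Trauma against Control, 7 lower in Tra_TGF against Trauma, and 4 higher and 8 lower in Tra_TGF against Control, with no filled point among the caspases and Apaf1.

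Cycs encodes cytochrome c, the electron carrier whose release starts the apoptosome. It was at 29.8, 29.7, 27.1 and 31.2 FPKM in Trauma and at 24.2, 22.9, 24.2 and 24.3 in Tra_TGF. Every treated library was below every Trauma library. It fell by 0.30 on the log2 scale (SE 0.0451, 1.23-fold lower, adjusted p = 0.00471). Against Control (26.7, 28.3, 27.5 and 26.3 FPKM) it was lower by 0.19 as well (log2 fold change −0.19 ± 0.0451, adjusted p = 0.0158), although this last call was lost without Tra_TGF 2 (−0.17, adjusted p = 0.0515) and with quantile normalization (−0.11, adjusted p = 0.106). Cycs had the lowest GC content of the 7 (42.3%), and a correction for GC made its difference to Trauma larger (−0.43, adjusted p = 0.00387).

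Bok encodes a pore-forming relative of Bax and Bak that is abundant in neurons. It was at 25.1, 31.2, 25.5 and 26.5 FPKM in Trauma and at 19.0, 17.6, 18.3 and 19.1 in Tra_TGF. The treated libraries lay close together, well below the lowest Trauma library. It fell by 0.54 on the log2 scale (SE 0.0936, 1.46-fold lower, adjusted p = 0.00820). It also fell against Control, where it was at 24.8, 29.8, 34.2 and 26.6 FPKM (log2 fold change −0.63 ± 0.0936, 1.54-fold lower, adjusted p = 0.00138). The call was kept in all 27 alternatives in both comparisons, but the GC correction brought the difference to Trauma down to −0.33 (adjusted p = 0.0243). The other pore-forming member, Bak1, gave −0.20 ± 0.101 against Trauma (adjusted p = 0.205) and −0.29 ± 0.101 against Control (adjusted p = 0.0702).

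Bad encodes the BH3-only protein that growth factor signalling holds inactive by phosphorylation. It was at 8.75, 9.41, 8.38 and 9.34 FPKM in Trauma and at 5.75, 6.56, 7.17 and 7.01 in Tra_TGF. The groups did not overlap. It fell by 0.44 on the log2 scale (SE 0.0846, 1.35-fold lower, adjusted p = 0.0117) against Trauma, and by 0.58 (SE 0.0846, 1.49-fold lower, adjusted p = 0.00116) against Control, where it was at 8.89, 9.98, 11.4 and 9.56 FPKM. With the GC correction the difference to Trauma was −0.28 (adjusted p = 0.0435). Its first 620 bases overlap Gpr137 on the opposite strand, and the strand setting of the counting is not given in the sources used here, so that reads of the 2 genes may not be told apart. Gpr137 gave −0.26 against Trauma (adjusted p = 0.0563) and −0.42 against Control (adjusted p = 0.00538).

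The other BH3-only members did not pass against Trauma. Bid, whose protein caspase-8 cuts, gave −0.0044 ± 0.123, and Bcl2l11 gave 0.045 ± 0.0962. Bmf gave −0.18 ± 0.157 and Hrk, a BH3-only gene known from neurons, gave −0.028 ± 0.0809. Summed over the 5 BH3-only genes, Bad included, the level was 28.0 to 29.8 FPKM in Control, 28.0 to 30.8 in Trauma and 26.4 to 27.5 in Tra_TGF. The mean of this sum went from 29.4 FPKM in Trauma to 27.0 in Tra_TGF, and that of Bad alone from 8.97 to 6.62.

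Of the survival genes, Bcl2l2, which encodes Bcl-w, was at 9.81, 9.22, 9.41 and 10.5 FPKM in Trauma and at 7.87, 7.78, 7.81 and 8.12 in Tra_TGF. The treated libraries were tightly grouped below all others. It fell by 0.30 on the log2 scale (SE 0.0521, adjusted p = 0.00849) against Trauma and by 0.24 (SE 0.0521, adjusted p = 0.00904) against Control, where it was at 8.68, 9.40, 9.55 and 9.87 FPKM. Neither call survived the GC correction (−0.11, adjusted p = 0.241 against Trauma, and −0.10, adjusted p = 0.267 against Control). The Bcl2l2 gene overlaps the protein-coding Gm20521 on the same strand, which had 0 reads in every library. How reads in that overlap were counted is not given in the sources used here.

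Bcl2l1, which encodes Bcl-xL, the main survival protein of mature neurons, was at 23.9, 24.5, 23.4 and 22.6 FPKM in Trauma and at 20.6, 19.0, 21.6 and 19.0 in Tra_TGF. The highest treated library lay just below the lowest Trauma library. It fell by 0.23 on the log2 scale (SE 0.0649, adjusted p = 0.0372), a call lost without any Trauma library or without Tra_TGF 1, 2 or 4 (−0.26 to −0.21, adjusted p = 0.0544 to 0.107), and with the GC correction (−0.13, adjusted p = 0.152). Against Control, where it was at 21.8, 26.8, 26.0 and 24.4 FPKM, it fell by 0.30 (SE 0.0649, adjusted p = 0.00971), a call kept in all 27 alternatives. Bcl2 (0.099 ± 0.110) and Mcl1 (−0.019 ± 0.0404) did not differ past the threshold between the scratched groups.

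Htra2 and Endog were the other mitochondrial factors that fell against Trauma. Htra2 encodes a protease that, once in the cytosol, removes inhibitors of apoptosis. It was at 9.82, 11.0, 10.1 and 12.4 FPKM in Trauma and at 8.94, 7.66, 8.39 and 8.82 in Tra_TGF. It fell by 0.35 on the log2 scale (SE 0.0997, adjusted p = 0.0411), with no overlap between the groups. That call was lost without Control 4, any Trauma library or any Tra_TGF library (−0.39 to −0.28, adjusted p = 0.0507 to 0.118), and with the GC correction (−0.22, adjusted p = 0.126). Against Control (9.11, 12.0, 12.2 and 10.2 FPKM) the log2 fold change was −0.35 ± 0.0997 (adjusted p = 0.0326), lost without Control 2 or 3 or without Tra_TGF 2, 3 or 4 (−0.37 to −0.29, adjusted p = 0.0549 to 0.0961). Its gene overlaps Aup1 over 753 bases and Loxl3 over 1297 bases, both on the opposite strand. Aup1 gave −0.15 against Trauma (adjusted p = 0.143) and −0.20 against Control, which passed (adjusted p = 0.0483). Loxl3 gave −0.08 against Trauma (adjusted p = 0.855) and 0.56 against Control (adjusted p = 0.0926).

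Endog encodes a mitochondrial nuclease that can cut nuclear DNA. It was at 8.58, 8.36, 8.46 and 9.99 FPKM in Trauma and at 7.16, 4.70, 7.85 and 4.82 in Tra_TGF. The treated libraries fell into a higher and a lower pair, all below the Trauma libraries. It fell by 0.55 on the log2 scale (SE 0.157, 1.47-fold lower, adjusted p = 0.0405). The call was lost without Control 2, any Trauma library or Tra_TGF 2 or 4 (−0.58 to −0.44, adjusted p = 0.0520 to 0.114), and with the GC correction (−0.27, adjusted p = 0.217). It rests on 78 to 189 reads per library, and its gene overlaps Spout1 on the opposite strand over 617 bases (Spout1 −0.13, adjusted p = 0.186). Against Control (7.52, 7.91, 9.09 and 6.71 FPKM) Endog gave −0.37 ± 0.157 and did not pass (adjusted p = 0.130). Diablo, whose product Smac binds inhibitors of apoptosis, gave 0.090 ± 0.159 against Trauma, and Aifm1, a mitochondrial flavoprotein that can move to the nucleus, gave −0.018 ± 0.0874. The Diablo gene overlaps the protein-coding Gm49027 on the same strand, which had at most 69 reads in a library, so that reads of the 2 genes may not be told apart. The summed level of the 5 mitochondrial genes was 49.8 to 56.1 FPKM in Control, 52.4 to 60.0 in Trauma and 41.9 to 47.3 in Tra_TGF.

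The members that fell with TGF-β1 differed from the others in base composition. The 7 that fell had a median GC content of 58.4% (42.3% to 64.3%), against 51.0% for the 26 members that did not pass and 50.5% over all genes tested. Over all 14699 genes with a GC value, the median log2 fold change against Trauma went from 0.140 in the fifth of genes with the lowest GC, through 0.0682, 0.0102 and −0.0680, to −0.158 in the fifth with the highest. After a loess correction of each library for GC, 3 members remained past the threshold, Cycs, Bok and Bad, where 5.14% of all genes did. The 7 were also shorter, at a median of 2946 bases, where the others had 5273 and all genes tested 3865, and a correction for length left 5 of them. What sets this relation to GC was not tested.

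**Figure D3:**
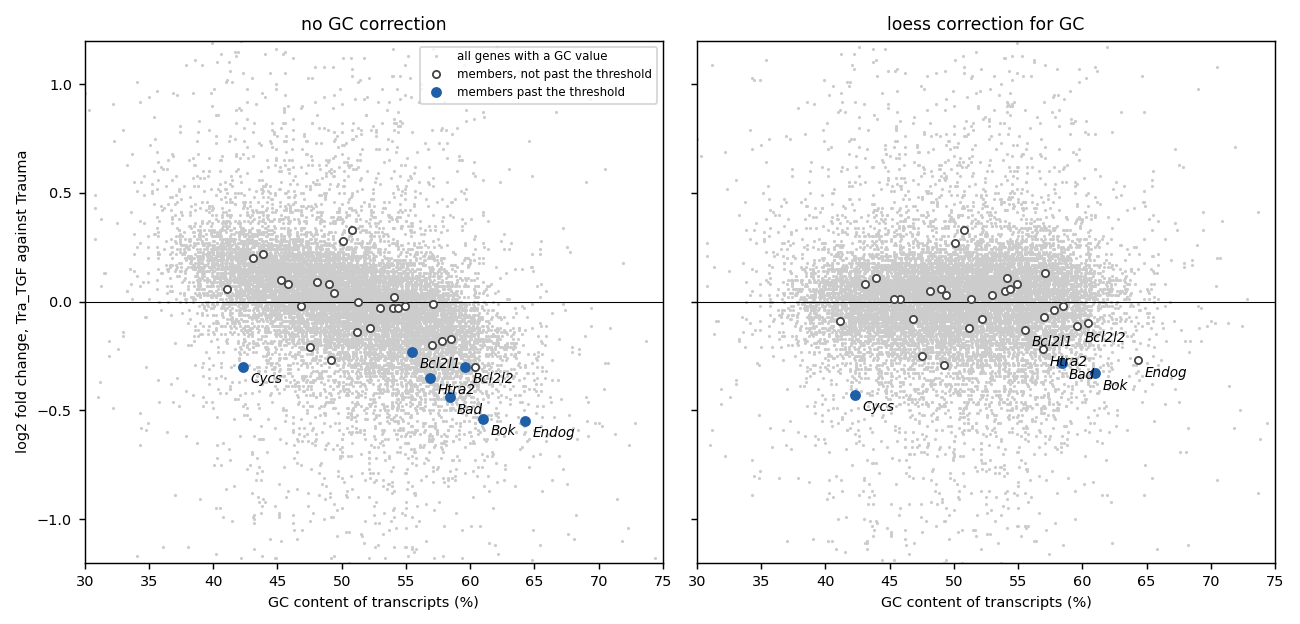
The x axis gives the GC content of a gene's transcripts in percent and the y axis its log2 fold change in Tra_TGF against Trauma, before (left) and after (right) a loess correction for GC. Grey points are all genes within the axes, circles the 33 tested members, filled where past the threshold: 7 on the left, and Cycs, Bok and Bad on the right. The grey cloud slopes down with GC on the left and is level on the right.

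Neither caspases nor receptors passed with TGF-β1. The 4 tested genes of the caspase and apoptosome class gave 0.080 (Casp2), 0.33 (Casp6), −0.17 (Casp9) and 0.084 (Apaf1) against Trauma, with 95% intervals of −0.12 to 0.28, −0.18 to 0.84, −0.42 to 0.08 and −0.09 to 0.26. Their summed level, Casp8 included, was 10.8 to 11.8 FPKM in Control, 10.5 to 11.6 in Trauma and 9.81 to 12.0 in Tra_TGF. Among the receptors and adaptors, Tnfrsf1a gave −0.010 ± 0.0904, with libraries at 8.16, 6.53, 6.77 and 7.38 FPKM in Tra_TGF that spanned the Trauma range. Tradd gave −0.30 ± 0.133 (adjusted p = 0.159), Ripk1 gave −0.21 ± 0.145, Fadd gave −0.14 ± 0.249, Tnfrsf10b gave 0.28 ± 0.251 and Tnfrsf21 gave 0.023 ± 0.0567. Of the inhibitors, Birc6, a giant ubiquitin ligase, was at 10.9 to 11.9 FPKM in Trauma and 12.6 to 13.9 in Tra_TGF without overlap (0.22 ± 0.0710, adjusted p = 0.0671). Birc2, which encodes cIAP1, gave 0.20 ± 0.0763 (adjusted p = 0.107), Xiap, the direct inhibitor of caspases, 0.056 ± 0.0658 and Cflar −0.27 ± 0.196. Parp1, a DNA repair enzyme cut by caspases, gave −0.12 ± 0.0414 (adjusted p = 0.0731), and Dffa and Dffb, the inhibitor and the nuclease that cuts DNA in apoptosis, gave −0.032 ± 0.0666 and −0.028 ± 0.0998.

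Tra_TGF was also set against Control, which combines injury and treatment and shares its libraries with the comparisons above. Of the 33 members, 12 passed (36.4%), 4 higher and 8 lower, against 16.6% of all genes called, 6.14% higher and 10.4% lower. The 4 higher were Bcl2, Bcl2l11, Birc2 and Tnfrsf1a. The 8 lower were Bcl2l1, Bcl2l2, Bok, Bad, Cycs, Htra2, Tradd and Parp1. The groups did not overlap in 11 members, against 18.5% of all genes. The median log2 fold change was −0.0374 over the members and −0.00902 over all genes tested. Without Control 1, 14 members passed. Birc6 (0.21, adjusted p = 0.00986), Bak1 (−0.35, adjusted p = 0.0359) and Tnfrsf10b (0.81, adjusted p = 0.0424) were added and Tradd was lost. Without Control 2 or Tra_TGF 2 or 4, 7, 6 and 7 passed, and the share of all genes called lay between 9.91% and 22.6% with 1 library left out. For all genes the split of 922 higher and 1565 lower turned to 1134 and 918 with quantile normalization and to 1340 and 1095 with FPKM scaled to the total reads on genes, in which 5 members were higher and 6 lower in either case.

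Bcl2 was at 1.77, 1.87, 1.61 and 1.69 FPKM in Tra_TGF, all above the 4 Control libraries, a rise of 1.48-fold (log2 fold change 0.56 ± 0.110, adjusted p = 0.00579). Tnfrsf1a rose 1.37-fold (0.45 ± 0.0904, adjusted p = 0.00659). Both calls were kept in all 27 alternatives. Bcl2l11 was at 5.06, 4.25, 4.05 and 4.15 FPKM in Control, 5.78, 5.25, 5.14 and 5.29 in Trauma, and 5.99, 6.31, 4.70 and 5.26 in Tra_TGF. The highest Control library, Control 1, overlapped the treated range. It rose 1.26-fold (0.34 ± 0.0962, adjusted p = 0.0331), a call lost without Control 2, 3 or 4 or Tra_TGF 1, 2 or 4 (0.27 to 0.36, adjusted p = 0.0534 to 0.0974) and with the GC correction (0.29, adjusted p = 0.0671). The survival gene Bcl2 and the BH3-only gene Bcl2l11 thus both rose, while Bcl2l1 and Bad both fell.

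Birc2 was the inhibitor that passed with all 12 libraries, and Birc6 passed as well without Control 1, which was at 14.4 FPKM against 11.3 to 12.0 in the other Control libraries and 12.6 to 13.9 in Tra_TGF. Birc2 was at 5.32, 5.55, 4.97 and 5.41 FPKM in Control, 5.23, 5.43, 6.27 and 5.47 in Trauma, and 5.82, 6.46, 6.23 and 7.28 in Tra_TGF. The treated libraries lay above all Control libraries. It rose 1.21-fold (0.27 ± 0.0763, adjusted p = 0.0310), a call lost without Control 2, 3 or 4 or Tra_TGF 2 or 4 (0.21 to 0.29, adjusted p = 0.0513 to 0.0882) and with the GC correction (0.16, adjusted p = 0.164), in all in 9 of the 27 alternatives.

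Tradd, the adaptor that binds the receptor for TNF, was at 4.28, 3.50, 3.48 and 3.65 FPKM in Control, 3.03, 2.95, 3.43 and 3.61 in Trauma, and 2.43, 2.16, 3.51 and 2.54 in Tra_TGF. Tra_TGF 3 lay inside the Control range and the other 3 treated libraries below it. It fell by 0.49 on the log2 scale (SE 0.133, 1.40-fold lower, adjusted p = 0.0272) against Control, in the opposite direction to its receptor gene. The call was lost without Control 1, 2 or 4 or Tra_TGF 1, 2 or 4 (−0.52 to −0.40, adjusted p = 0.0507 to 0.0799) and with the GC correction (−0.33, adjusted p = 0.149). Parp1 was at 23.7, 26.3, 26.8 and 25.8 FPKM in Control, 25.0, 24.4, 25.1 and 25.3 in Trauma, and 23.8, 22.8, 23.0 and 22.2 in Tra_TGF. Control 1 lay within the treated range. It fell by 0.16 (SE 0.0414, adjusted p = 0.0216), the smallest called difference of the members, lost without Control 2 or 3 or Tra_TGF 2 or 4 (−0.16 to −0.14, adjusted p = 0.0560 to 0.0662). It was also lost with quantile normalization (−0.09, adjusted p = 0.155), with FPKM scaled to the total reads on genes (−0.12, adjusted p = 0.0770) and in a fit of the 2 groups alone (adjusted p = 0.0653 in limma).

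**Figure D4:**
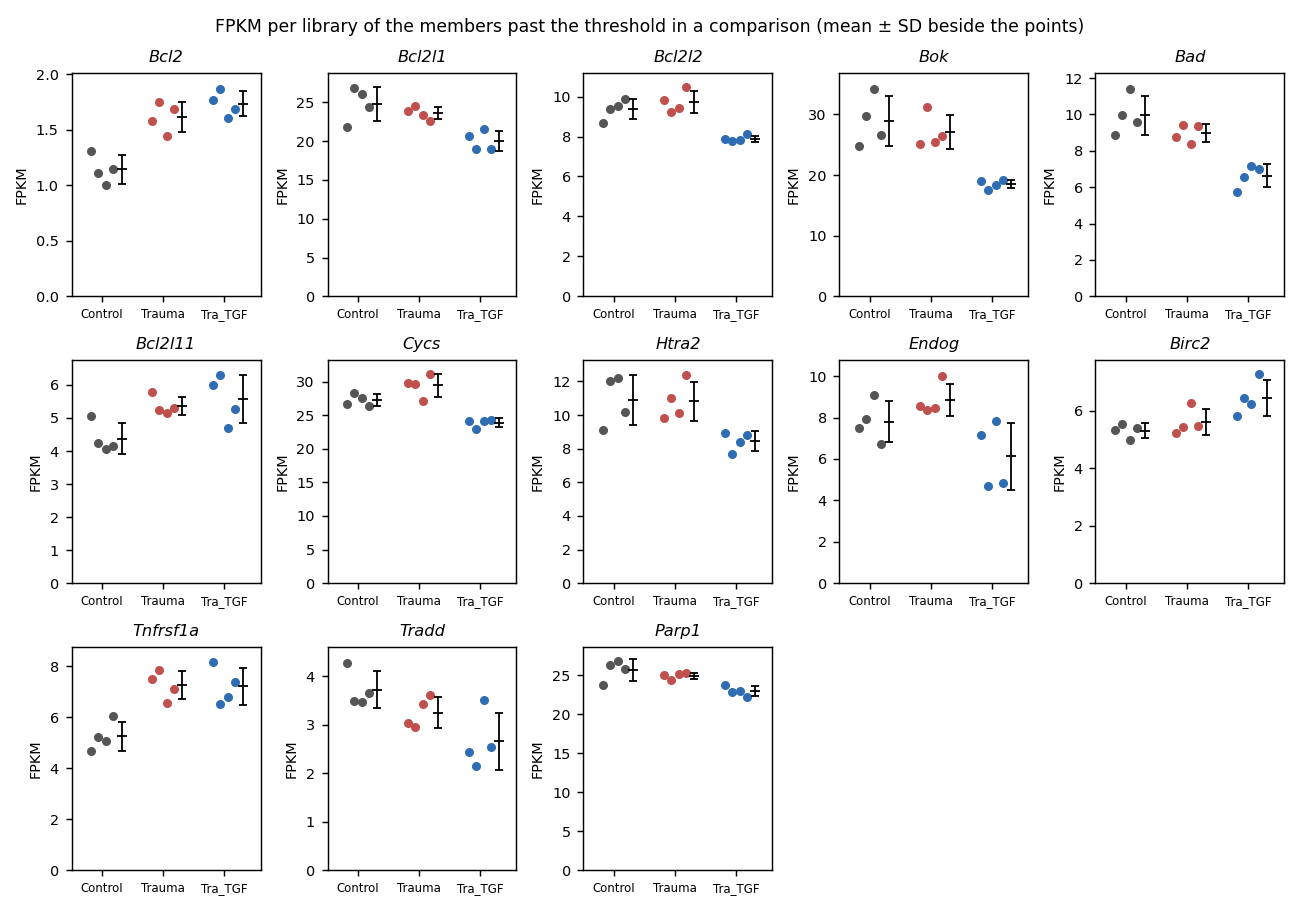
Each panel shows 1 of the 13 members that passed in any comparison. Points are the FPKM of the 4 libraries of each group, in the order of their replicate numbers, and the bar beside them gives the mean and SD, on a linear axis from 0. Bok, Bad, Bcl2l2 and Cycs sit lower in the 4 Tra_TGF libraries than in any other library, and Bcl2 and Tnfrsf1a sit lower in the 4 Control libraries than in any scratched one.

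The caspase and apoptosome class had no called gene against Control either (Casp2 0.12, Casp6 0.19, Casp9 −0.26 with an adjusted p of 0.141, Apaf1 0.12). Among the rest, Tnfrsf10b had the largest difference, at 0.262 to 0.608 FPKM in Control and 0.653 to 0.799 in Tra_TGF (0.66 ± 0.251, adjusted p = 0.0934; 22 to 69 reads per library), and the groups did not overlap. It passed in 3 alternatives, and Mcl1 passed in 6, at 0.12 to 0.21.

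A further list of 53 genes of the same pathways, of which 27 were tested, was read in the same way. Of the genes reported here, Fas and Tnfrsf12a rose after injury and Faim2 fell. Fas, the receptor for Fas ligand, rose from 0.284 to 0.494 FPKM in Control to 0.988 to 1.50 in Trauma (log2 fold change 1.38 ± 0.208, SE, adjusted p = 0.00236 in limma), on at most 54 reads per library. Tnfrsf12a, the receptor for TWEAK, rose by 0.59 ± 0.116 (adjusted p = 0.0117). Faim2, a neuronal inhibitor of Fas signalling, fell by 0.18 (SE 0.0448, adjusted p = 0.0391). The share of the list called is given only for Tra_TGF against Trauma and does not speak for the comparisons with Control. Against Trauma, 2 fell with TGF-β1 and none rose, which is 7.41% of the list and below the 12.1% of all genes called. They were Bbc3, which encodes the BH3-only protein Puma (13.3 to 15.9 FPKM in Trauma and 9.44 to 11.3 in Tra_TGF, log2 fold change −0.58 ± 0.108, SE, adjusted p = 0.0102 in limma), and Vdac1, a channel of the outer mitochondrial membrane (−0.13 ± 0.0350, adjusted p = 0.0366). Against Control, Fas (1.32) and Tnfrsf12a (0.70) were higher, and Faim2 (−0.16), Bag1 (−0.21, adjusted p = 0.0107), a co-chaperone that binds Bcl2, and Bax (−0.33, adjusted p = 0.0407), the main pore-forming gene of neurons, were lower. Bax was at 38.8 ± 2.13 FPKM in Trauma and 31.4 ± 2.93 in Tra_TGF (SD, n = 4), a difference of −0.31 that did not pass (adjusted p = 0.0607 in limma).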

How the data were processed

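RNA-seq libraries of the 3 groups of 4 were used as deposited. The study's methods speak of fewer sequenced samples than the 12 libraries labelled, so what separates the 4 libraries of a group is not known. Per the labels the authors aligned reads with HISAT2 2.0.5 to mm10, and per the methods they counted reads on genes with featureCounts. The deposited values are FPKM, with the gene length (other) in bases. FPKM times length came in whole steps for 100% of values (tolerance 0.01 reads), which gave the reads, and FPKM were found to be scaled already by median of ratios over 17640 genes, so that rescaling changed nothing. A value of 0.1 was added, log2 taken, and genes with a mean of at least 0.5 FPKM fitted with limma 3.58.1 (R 4.3.3; lmFit, contrasts, eBayes with trend, two-sided) in 1 fit of the 12 libraries, with Benjamini-Hochberg adjustment over 15016 genes. The GC content of transcripts came from the GENCODE annotation. Loess corrections used a span of 0.3. The scripts were tested on simulated data. Python 3.11.15 was used for tables (pandas 2.3.3, numpy 2.4.6) and figures (matplotlib 3.10.9).

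All 35 members are named, with full statistics for those past the threshold. The members, classes and lists were chosen with earlier results of these data known. Other genes of the list are named where past the threshold. The result for a single gene of that list is not reported here. The alternatives were pseudocounts of 1 and 0.01, a filter at 1 FPKM or none, the values as deposited or after quantile normalization, the replicate number as a block, loess corrections for length or GC content (also with that block), voom on the recovered reads, a fit without the third group, an untrended eBayes, and each library left out. FPKM scaled to the total reads on genes was added after the values were seen. With 3 reads or fewer in a library no fold change is given for it. Reads are PCR copies without molecular identifiers, so that floors cover counting error only.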

Additional observations from a re-analysis of the deposited data

Results flagged for a closer look

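In 5 of the 105 sets of 4 libraries (4.76%, where chance gives about 1 in 20) a single library lay apart from the other 3 by a share of the whole range above Dixon's 95% critical value. Cycs in Tra_TGF was at 22.9 FPKM in replicate 2 and at 24.2 to 24.3 in the others. Diablo in Control was at 0.748 FPKM in replicate 1 (71 reads) and at 1.11 to 1.14 in the others (108 to 118 reads). Casp8 in Control was at 0.449 FPKM in replicate 1 (20 reads) and at 0.0220 to 0.0897 in the others (1 to 4 reads). Endog in Trauma was at 9.99 FPKM in replicate 4 and at 8.36 to 8.58 in the others. Tnfrsf21 in Tra_TGF was at 27.2 FPKM in replicate 1 and at 23.1 to 23.4 in the others.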

How the results depend on the processing

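Of the 21 called values of members, each under 27 alternatives (567 values in all), 462 kept their direction and passed, 105 kept their direction and no longer passed, and 0 reversed. The values as deposited equalled those of the main fit, since rescaling changed nothing, so that this alternative was bound to keep every call. Leaving out a library of the group not compared could change the spread but not the fold change. The 8 that passed in every alternative were Tnfrsf1a in both comparisons with Control, Cycs and Bok against Trauma, and Bok, Bcl2l1, Bad and Bcl2 in Tra_TGF against Control. The main counts of members called were 2 for Trauma against Control, 7 for Tra_TGF against Trauma and 12 for Tra_TGF against Control. Without a filter on low values the first 2 were 1 and 4, with more genes in the adjustment. Leaving out 1 library gave 1 to 3, 4 to 9 and 6 to 14 members. The fit of the 2 groups compared gave 1 in the first and 7 in the last. Voom on the recovered reads gave 4 in Trauma against Control. In Tra_TGF against Trauma the GC correction left 3 and eBayes without a trend 4. At an unadjusted p the first 2 counts were 7 and 11. The causes were not tested. Counts of all genes called also moved by over 1.5 times, from 901, 1819 and 2487 to 575, 987 and 1692 without the filter, from 901 to 518 and from 2487 to 1601 in the fit of the 2 groups, and from 1819 to 755 with the GC correction. With 1 library left out they were 489 to 875 (over 1.5 times lower without Trauma 2, 3 or 4), 651 to 2539 (without Trauma 1, 2 or 4 or Tra_TGF 2 or 4) and 1488 to 3389 (without Control 2 or 3 or Tra_TGF 2), so that the background shares also rest on single libraries. Same-numbered libraries of different groups did not deviate together (correlations −0.00877 to 0.0762 over 12 pairs, and −0.0911 to 0.0733 over the 36 other pairs, with 4 of the 12 libraries closest to one of their own number), so that the numbers do not pair the samples. With the replicate number as a block, 2, 5 and 11 members were called, Htra2 and Bcl2l1 being lost against Trauma (adjusted p = 0.0658 and 0.0526 in limma) and Htra2 against Control (0.0551). With the block and the length correction 4 were called in Tra_TGF against Trauma. With the block and the GC correction 4 were called in Trauma against Control and 2 in Tra_TGF against Trauma, Bad being lost (−0.28, adjusted p = 0.0553 in limma). Members with few reads (Casp8, Birc3, Fadd, Tnfrsf10b, Casp6) limit what could be detected.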
